A study of Arabidopsis thaliana with 2 samples.

Results

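The clock factor LHY was found at 14718 regions of Arabidopsis thaliana chromatin. Of these regions, 236 were centred inside genes for long non-coding RNA (lncRNA), in gaps of more than 1000 bp between protein-coding genes. They make up 1.60% of the list and lie in 244 lncRNA genes, since 19 of the midpoints fall inside a pair of overlapping lncRNA genes. A region was counted when its midpoint lay inside a nuclear lncRNA gene, outside every protein-coding gene, and in a gap of more than 1000 bp between the 2 flanking protein-coding genes. Only position and annotation chose these regions. Their scores played no part. Unless called whole, a region is said to be in or inside an lncRNA gene by its midpoint only. In 30 of the 236, or 12.7%, most of the region lay outside lncRNA genes.

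The regions come from chromatin immunoprecipitation followed by sequencing (ChIP-seq) with an antiserum raised to full-length LHY, applied to whole seedlings of the Ws ecotype. The genotypes compared were the wild type and lhy-21, an LHY knock-out, both aged 2 weeks and sampled 2 h after dawn. For each genotype there was 1 library, into which 9 ChIP samples had been pooled. The deposited list holds places where the wild-type library had an excess of reads over the mutant one. It therefore has 1 direction only and no replicate check. Whole seedlings mix many cell types, and occupancy in some cells cannot be told apart from occupancy in all.

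LHY is a MYB-type transcription factor that peaks around dawn and, with its close relative CCA1, represses genes of the evening. Long non-coding RNAs are transcripts without a long reading frame. Some plant lncRNAs are made next to or antisense to regulatory genes, and several of those at flowering and cold-response genes are known to affect the gene beside them. The intergenic DNA that holds an lncRNA gene is also where promoters and other control elements of the neighbouring protein-coding genes lie, so a region there may belong with the lncRNA gene or with the protein-coding gene on either side. Which of them a region acts on, if any, is not shown by its position. The gene table gives no strand, so the start of an lncRNA gene was not told apart from its end.

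The list placed 360 midpoints inside an lncRNA gene. Of these, 100 were also inside a protein-coding gene, and a further 24 lay in a gap of 1000 bp or less, which left the 236. They were spread over all 5 nuclear chromosomes, with 60, 48, 39, 30 and 59 on chromosomes 1 to 5. There were 3480 nuclear lncRNA genes in the table, and 2268 of them had at least some sequence in which a midpoint would have counted. Of these 2268, the 244 with a region are 10.8% (exact 95% interval 9.51 to 12.1). This interval and the others below cover counting error only.

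At the limit of the rule, the members with the smallest gaps were in AT2G04145 and AT4G07865. The first of these gaps, 1015 bp between AT2G01870 and PAP7, a purple acid phosphatase gene, held a weak region with a score of 3.57. The gap around AT4G07865 was 1024 bp and its region scored 71.9. Just outside the rule stood a region in AT2G26355, between PEX10, a peroxisome biogenesis gene, and AT2G26360, with a gap of 974 bp and a score of 9.30. Another, in AT5G09443 between EXL4 and AT5G09445, had a gap of 960 bp and a score of 111, higher than that of any member.

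Each region carries a score that the authors deposited. Its scale is not stated in the sources used here, and it serves only to rank and describe regions within the list. The 236 regions had a median score of 11.0, with quartiles of 5.91 and 25.3 and a range from 2.13 to 95.3. The whole list had a median of 10.12, quartiles of 5.70 and 22.3, and a highest score of 213. Regions in the rest of the gaps over 1000 bp, outside lncRNA genes, had a median of 10.0 (n = 7403), and those inside protein-coding genes had 9.81 (n = 5123). The middle parts of the distributions overlapped widely, and the strongest member ranked 252 in the list of 14718.

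Counts above a threshold gave the same picture. Of the 236 regions, 127 scored above the median of the whole list, or 53.8% (47.2 to 60.3), against 50.0% of all regions by construction. The strongest 10% of the list took in 25 of them, or 10.6% (6.97 to 15.2), against 10.0%. Among the 1000 strongest regions there were 18, or 7.63% (4.58 to 11.8), against 6.79%. Every one of these shares has the share of the whole list inside its interval. The members had a median width of 319 bp, with quartiles of 188 and 552.5 bp, against 292 bp in the rest of the gaps and 270 bp inside protein-coding genes. There were 11 members at least 1000 bp wide, 4.66% (2.35 to 8.19) against 3.81% of the list. Width and score went together in the members as in the list, with a Spearman correlation of 0.74 against 0.73 over all regions. These correlations are across regions of the same libraries and are given as a description.

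**Figure D1:**
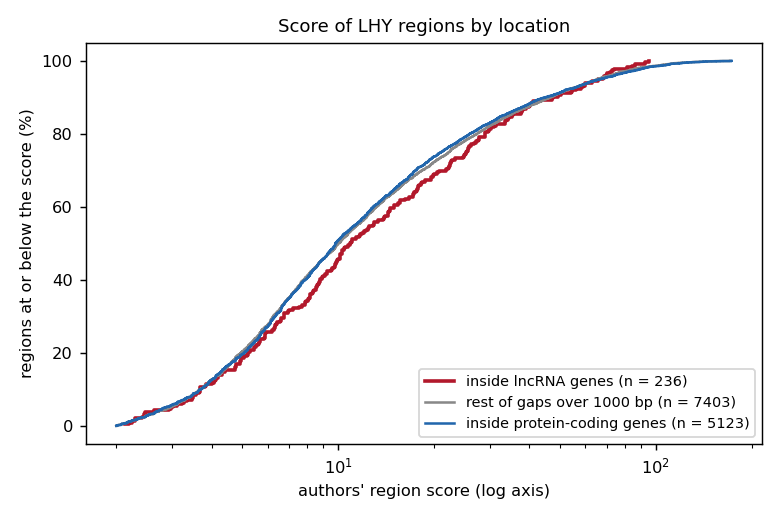
Cumulative share of regions (%) against the authors' score (log axis), for the 236 regions inside lncRNA genes (red), the 7403 in the rest of the gaps over 1000 bp (grey) and the 5123 inside protein-coding genes (blue). The curves run close together, with medians of 11.0, 10.0 and 9.81, and the red curve ends at 95.3.

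Among the members, score was almost unrelated to where a region lay. Its Spearman correlation was 0.0019 with distance to the nearer protein-coding gene, 0.035 with the length of the gap and -0.0023 with the length of the lncRNA gene (n = 236 regions each, as a description). The 40 members within 250 bp of a protein-coding gene had a median score of 10.3, and the 35 more than 2000 bp away had 12.5. The highest score of the far group was 43.6, however, and none of the 35 was among the 1000 strongest regions, whereas 5 of the 40 nearest were. In the rest of the gaps 59 of 917 regions beyond 2000 bp were among the 1000 strongest, or 6.43%, and 176 of 2109 within 250 bp, or 8.35%. The 67 regions that fell whole inside lncRNA genes were narrow and weak, with a median width of 178 bp and a median score of 7.91. Regions that extended beyond the lncRNA gene had medians of 392 bp and 14.3 (n = 169). Only a region narrower than the lncRNA sequence can fall whole inside it, so this split favours narrow regions by construction. Width and score went together, so the difference in score is not separate from that in width. The lncRNA genes with a region had a median length of 382 bp, against 322 bp for those with eligible sequence and no region.

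The strongest member, with a score of 95.3, lay in AT3G01865 on chromosome 3 from 2068896 to 2069264 (TAIR9, as are all positions here, counted from 1). Its midpoint was 289 bp from AT3G06630 and 1663 bp from AT3G06620. The next, at 92.6, was a 1253 bp region in AT2G09115 on chromosome 2 from 16764755 to 16766007, centred 328 bp from AT2G40130 and the only region in its gap. In AT5G09190 a region scored 85.7, on chromosome 5 from 25771499 to 25772145. It was centred 127 bp from AT5G64450 and 1204 bp from FAAH, the fatty acid amide hydrolase that breaks down N-acylethanolamines. A region in AT1G05527 on chromosome 1, from 6959031 to 6960121, scored 84.3 and was 428 bp from AT1G20070 and 2454 bp from SYTB, a synaptotagmin gene. These 4 regions ranked between 252 and 392 in the whole list of 14718, all among the 1000 strongest. Of the region at AT3G01865, 80.5% lay in the lncRNA gene. At AT2G09115, AT5G09190 and AT1G05527 only 39.6%, 44.2% and 40.9% did. These regions also reached 299, 197 and 118 bp, in the same order, into a protein-coding gene.

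**Figure D2:**
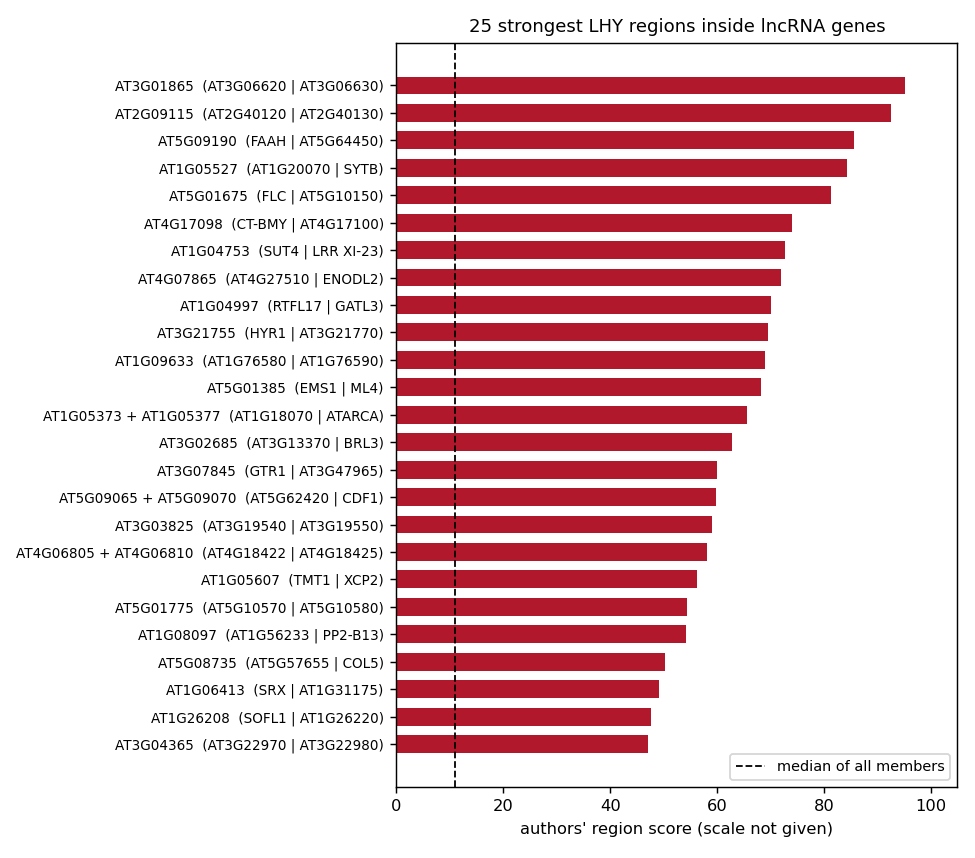
Authors' score (bars, linear axis from 0, scale not given) of the 25 strongest regions inside lncRNA genes, each labelled with its lncRNA gene and, in brackets, the protein-coding genes on either side. Scores run from 95.3 in AT3G01865 to 47.0 in AT3G04365, against a median of 11.0 over all 236 members (dashed line).

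Among the 25 strongest, 3 had a flanking gene of starch breakdown or sugar transport, not always the nearer one. The region in AT4G17098 scored 74.1 and lay on chromosome 4 from 9608936 to 9610407, 2269 bp from CT-BMY, the chloroplast beta-amylase of starch breakdown, and 239 bp from AT4G17100. It fell whole inside its lncRNA gene of 3069 bp, but 498 bp of its 1472 bp also reached into a protein-coding gene. The same gap held other regions of 57.7 and 20.0. The region in AT1G04753 scored 72.8 at 742 bp from SUT4, a sucrose transporter gene, and 4140 bp from LRR XI-23, a receptor-like kinase gene. In AT1G05607 a region of 56.3 was centred only 32 bp from TMT1, which encodes a sugar carrier of the vacuole membrane, and 421 bp of the 905 bp region reached into a protein-coding gene. XCP2, a peptidase gene of xylem vessels, was 3585 bp away on the other side. These genes were grouped after their values were seen, so the grouping is no evidence of a shared theme.

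Other strong members had neighbours of varied kinds. AT4G07865 (71.9) was flanked by ENODL2, an early nodulin-like gene, at 476 bp and by AT4G27510 at 549 bp. AT1G04997 (70.0) lay between RTFL17, a small peptide gene of the ROTUNDIFOLIA-like family, at 801 bp and GATL3, a galacturonosyltransferase-like gene, at 1480 bp. AT3G21755 (69.5) was 91 bp from HYR1, a UDP-glucosyltransferase gene, and 307 bp of its region reached into a protein-coding gene. AT5G01385 (68.2) was 582 bp from ML4, of the MEI2-like RNA-binding family, and 3677 bp from EMS1, a receptor kinase of anther development. AT3G02685 (62.8) was 538 bp from BRL3, a brassinosteroid receptor gene, in a gap whose other region was stronger at 68.3. AT3G07845 (60.0) was 1916 bp from GTR1, a glucosinolate transporter gene, in a gap with 5 regions. Only 19.9% of this region and 21.3% of that at AT1G04997 lay in their lncRNA genes.

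The remaining members of the 25 strongest included the widest of all 236, a region of 2015 bp that scored 68.9 between AT1G76580 and AT1G76590. Only 19.8% of it lay in its lncRNA gene, AT1G09633, which is 399 bp long. A region of 65.6 lay inside both AT1G05373 and AT1G05377, 1116 bp from AT1G18070 and 2701 bp from ATARCA, the scaffold protein also called RACK1A. A score of 58.2 was found inside both AT4G06805 and AT4G06810, 703 bp from AT4G18425. The regions in AT3G03825 (59.1), AT5G01775 (54.5) and AT3G04365 (47.0) had no flanking gene with a symbol of its own. AT1G08097 (54.3) was 890 bp from AT1G56233 and 4192 bp from PP2-B13, a phloem protein 2-like gene. AT5G08735 (50.4) was 1365 bp from COL5, a CONSTANS-like B-box gene. AT1G06413 (49.2) was 1207 bp from SRX, which encodes sulfiredoxin, and AT1G26208 (47.6) was 461 bp from SOFL1, a SOB five-like gene. At the low end, the scores were 2.13 in AT2G03985 near the auxin carrier gene PIN4, 2.196 in AT5G00875, 293 bp from AT5G02760, and 2.24 in AT1G04607 between ATOBGM and PLL5.

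Flowering-time genes supplied the members whose neighbours are best known. FLC encodes a MADS-box repressor of flowering that is silenced by prolonged cold. The member in AT5G01675, an lncRNA gene of 6230 bp that overlaps FLC, scored 81.4 and ranked 5 among the 236. It lay on chromosome 5 from 3179054 to 3179889, with its midpoint 23 bp outside FLC and 129 bp inside the end of the lncRNA gene, and 395 bp of the region were inside FLC itself. The midpoint was thus outside FLC by a margin far smaller than the width of the region, 836 bp, and the same gap held a weaker region of 9.74 on the side of AT5G10150. The lncRNA gene has no name of its own in the table, and none is given to it here.

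CDF1, a DOF factor that represses CONSTANS in the morning, flanked a member of 59.9 on chromosome 5 from 25066105 to 25066973. This region was inside both AT5G09065 and AT5G09070. It was 203 bp from AT5G62420 but 2554 bp from CDF1, and a region outside the lncRNA genes, with a score of 109, was nearer to CDF1 at 899 bp. CO itself, the activator of flowering in long days, shares a gap of 3005 bp with its relative COL1, and the lncRNA gene AT5G15845 of 5211 bp spans the whole gap. It held 2 members, of 38.2 and 7.03, on chromosome 5 from 5175383 to 5175654 and from 5175940 to 5176065. Both were nearer to COL1, at 573 and 89 bp, than to CO, at 2433 and 2917 bp. AGL20, the floral integrator also known as SOC1, had a member of 22.2 in AT2G09655, 3251 bp away at the far end of a gap that also held regions of 38.8, 19.8 and 3.43 nearer to it.

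Beside genes of cold and dehydration response there were members at 3 listed genes. CBF2 and DREB1A (CBF3), which encode activators of cold acclimation, share a gap with AT4G07385. The member there scored 34.4, on chromosome 4 from 13017281 to 13018411, at 164 bp from DREB1A and 1611 bp from CBF2. A region outside the lncRNA gene, with a score of 57.4, lay 329 bp from CBF2. RD22, a dehydration-responsive gene, had a member of 16.2 in AT5G04025, 4076 bp away in a gap of 18084 bp that ends at YUC6, a gene of auxin synthesis. In light signalling, PIL6 (PIF5), a phytochrome-interacting factor, had a member of 6.63 in AT3G09185 at 572 bp, with a stronger one of 12.2 in the same gap outside the lncRNA genes.

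**Figure D3:**
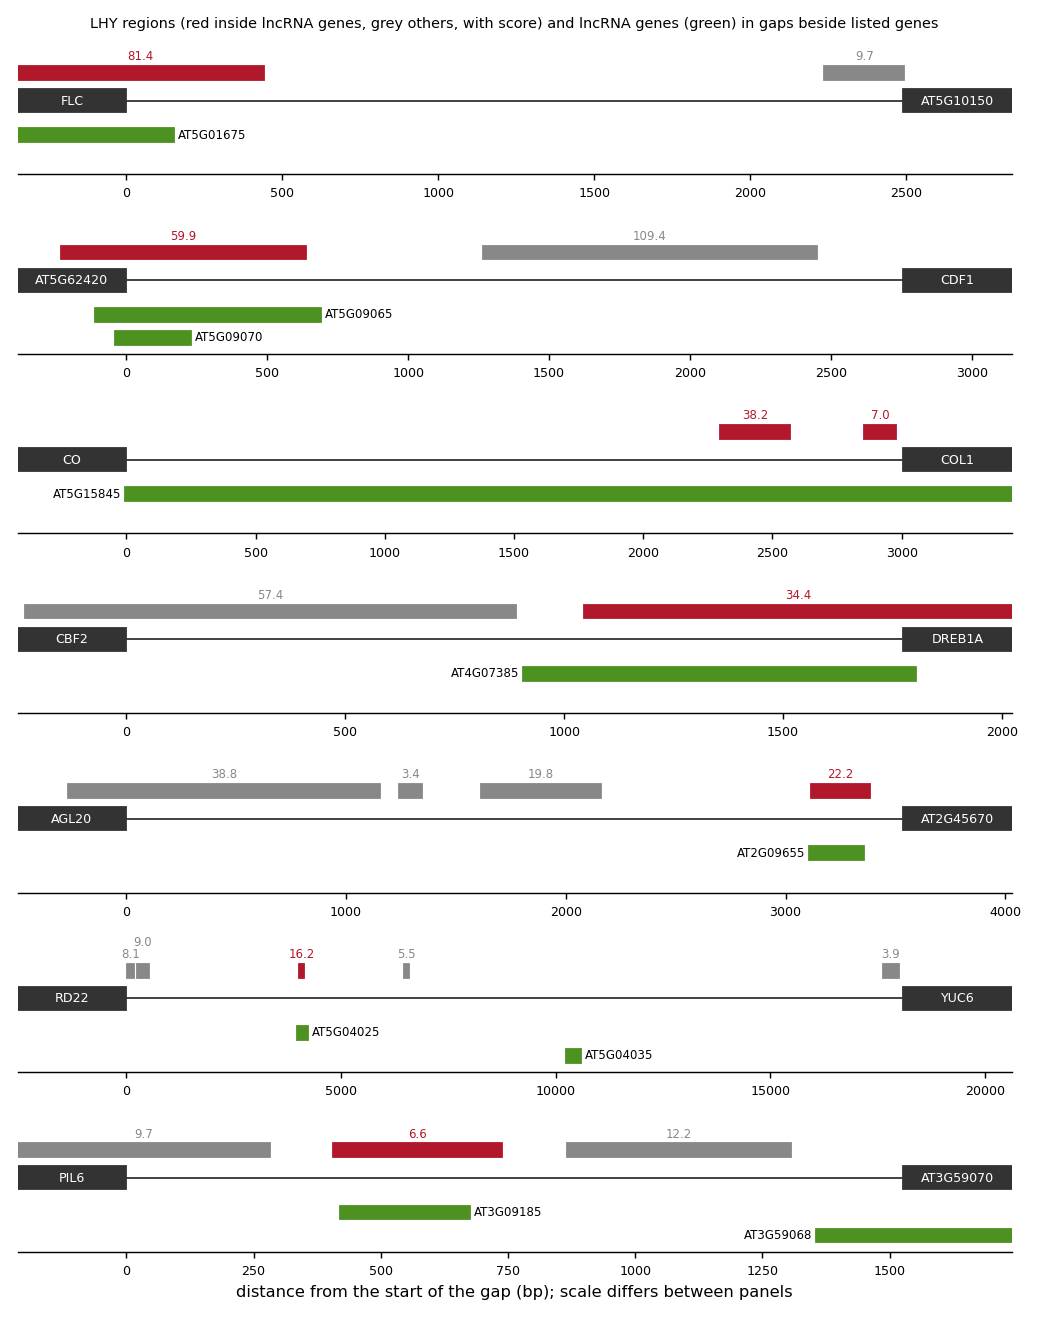
Maps of the 7 gaps between protein-coding genes (black) that hold a member beside a listed gene, with LHY regions above the line (red inside lncRNA genes, grey others, labelled with the authors' score) and lncRNA genes below it (green). The horizontal axis is distance from the start of the gap in bp, with a scale of its own in each panel, and features that run on past a panel are cut at its edge. The red region at FLC scored 81.4, and at CDF1 the grey region of 109 is the nearer of the pair.

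The lists of clock, flowering, light, cold, abscisic acid and antenna genes held 140 genes, of which 137 were found in the gene table. Of the 137, 8 flanked a member, or 5.84%, against 1.60% of all nuclear protein-coding genes (438 of 27444). Of the 8, 4 were the nearer gene and 3 lay within 1000 bp. A gene can do so only where its gap holds an lncRNA gene, which was true of 28 of the 137 listed genes. The 8 are 28.6% of these 28, against 13.0% of all 3370 genes in that position. The lists were chosen with results of these data known, and 2 of the 8, CBF2 and DREB1A, share a single region. By list, the 8 were 4 of 15 flowering-time genes (CO, AGL20, FLC and CDF1), 5 of which stood next to a gap with an lncRNA gene. They were 3 of 22 cold and dehydration genes, with 4 in that position, and 1 of 29 light signalling genes, with 5. Members flanked none of the 9 genes of the evening clock, the 13 of the morning and day clock, the 32 of abscisic acid and the 17 of the light-harvesting antenna. In these lists 2, 1, 10 and 1 genes, in the same order, were in that position. A gene with no member beside it may have regions elsewhere, and absence from the list shows no absence of binding.

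LHY regions were denser inside lncRNA genes than in the rest of the gaps. The eligible part of the lncRNA genes came to 808 kb and held 292 midpoints per Mb (256 to 332). The rest of the gaps over 1000 bp, 49147 kb, held 151 per Mb (147 to 154), and protein-coding genes held 79.5 per Mb. Against an even spread over the nuclear chromosomes, these densities were 2.36-fold (2.07 to 2.68), 1.22-fold and 0.643-fold. The ratio of lncRNA genes over the rest of the gaps was 1.94 (1.70 to 2.21), and it was above 1 on every chromosome, from 1.63 on chromosome 1 to 2.35 on chromosome 2.

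This ratio depended on where in the gap and on the chromosome the lncRNA genes lie. Within 250 bp of a protein-coding gene the densities were 455 and 387 per Mb, a ratio of 1.18 (0.838 to 1.61), and from there to 500 bp the ratio was 1.19 (0.807 to 1.70). Neither interval excludes an equal density. Between 500 and 1000 bp there were 337 against 200 per Mb, with a ratio of 1.69 (1.33 to 2.11), and between 1000 and 2000 bp there were 251.1 against 174, with a ratio of 1.44 (1.07 to 1.91). Beyond 2000 bp the ratio was 4.86 (3.37 to 6.82), from 209 against 43.0 per Mb. In gene-poor parts of the chromosomes LHY regions were rare, with 73.1 per Mb inside lncRNA genes and 18.7 per Mb in the rest of the gaps. The 239 gene-poorest bins of 100 kb, with at most 17 protein-coding genes each, held 9 members. Without these bins the overall densities were 331 and 241 per Mb, a ratio of 1.38 (1.20 to 1.57), and beyond 2000 bp they were 316 and 149 per Mb, a ratio of 2.13 (1.46 to 3.02). Between 1000 and 2000 bp the interval then included 1, with a ratio of 1.29 (0.949 to 1.72). Weighting the rest of the gaps to the distances of lncRNA sequence gave 1.58, or 1.42 without the gene-poor bins. These alternatives were chosen after the first ratio was seen. Base composition and how well reads map in each kind of sequence were not measured here, so their part in the ratio was not tested.

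**Figure D4:**
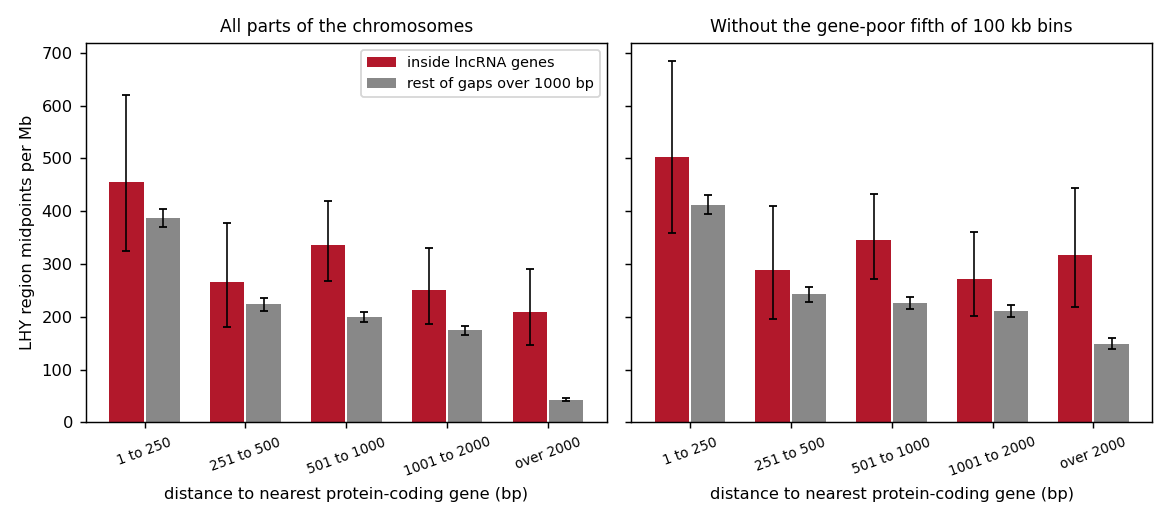
Midpoints of LHY regions per Mb inside lncRNA genes (red) and in the rest of the gaps over 1000 bp (grey) by distance in bp to the nearest protein-coding gene, over all chromosome parts (left) and without the gene-poor bins (right). Error bars are exact 95% intervals for counting error. Beyond 2000 bp the bars stand at 209 and 43.0 per Mb on the left, and at 316 and 149 on the right.

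The ratio also increased with gap length. In gaps of up to 2000 bp the ratio of lncRNA genes over the rest was 1.09 (0.801 to 1.44), and in gaps of 2000 to 4000 bp 1.18 (0.931 to 1.48). It was 1.86 (1.47 to 2.31) in gaps of 4000 to 8000 bp and 3.63 (2.36 to 5.35) in longer ones. From the shortest gaps to the longest, the densities inside lncRNA genes were 309, 302, 374 and 154 per Mb. In the rest of the gaps they were 284, 256, 202 and 42.3 per Mb. Both densities were thus lowest in the longest gaps. The gap classes were not recomputed without the gene-poor bins. Distance, gap length and gene density vary together, and their separate parts were not tested beyond the values above.

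Density was also measured by distance from the ends of the lncRNA genes. In the outermost 100 bp inside the genes there were 329 midpoints per Mb (275 to 389), in the next 100 bp 303 per Mb, and between 200 and 500 bp inside 213 per Mb. At 500 bp or more inside, the density was 163 per Mb (81.3 to 292), from 11 midpoints. This interval overlaps that of the outermost zone, which does not show that the densities are equal. Zones that deep exist only in the longer lncRNA genes. In gap sequence outside, it was 273 per Mb in the first 100 bp, 233 in the next 100 bp, 222 between 200 and 500 bp and 235 between 500 and 1000 bp. Neighbouring intervals overlapped. No interval was computed for the ratio between zones, so whether the steps exceed counting error was not tested. Gap sequence within 1000 bp of an lncRNA gene was thus denser in LHY regions than the rest of the gaps as a whole, at 151 per Mb. Without the gene-poor bins, however, the rest of the gaps held 241 per Mb. The zones were not recomputed without those bins, so a higher density near lncRNA genes is not shown.

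**Figure D5:**
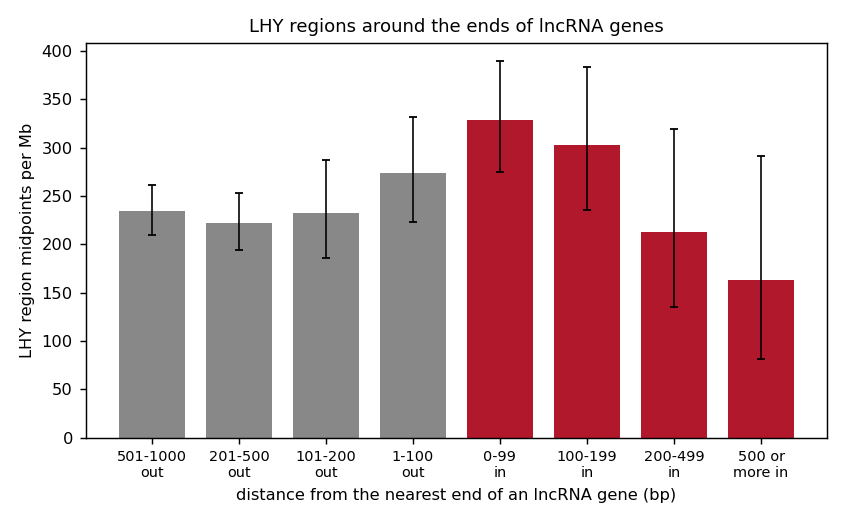
Midpoints of LHY regions per Mb in zones by distance in bp from the nearest end of an lncRNA gene, outside the gene (grey, left) and inside it (red, right), in gaps over 1000 bp. Error bars are exact 95% intervals for counting error. The highest bar, 329 per Mb, is the outermost 100 bp inside the genes, and the deepest zone has 163.

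Because lncRNA genes are short, most of their sequence is near an end. Of the 236 members, 204 were within 200 bp of an end of the lncRNA gene, or 86.4% (81.4 to 90.5), where 78.4% of the eligible base pairs lie. In lncRNA genes of at least 1000 bp, 11 of 30 members were that close, or 36.7%, against 24.8% of base pairs, which lies within the interval of 19.9 to 56.1. The share of lncRNA genes with a member increased over 4 classes of eligible length with 567 genes each, at 6.35%, 9.70%, 12.3% and 14.6% from the shortest class to the longest. Per kb of eligible sequence the members numbered 0.331, 0.360, 0.343 and 0.230, so the longest class had the most genes with a region and the fewest regions for its length.

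Most members were within 1000 bp of a protein-coding gene, as were most regions in the rest of the gaps. The median distance to the nearer protein-coding gene was 776.5 bp (quartiles 396 and 1430 bp, lowest 2, highest 5387). In the rest of the gaps the median was 597 bp, with quartiles of 208 and 1274 bp. Within 1000 bp of a protein-coding gene there were 151 of the 236 (64.0%), of which 11 were that close to both flanking genes. In 35 members the region itself reached into a protein-coding gene, and 44 were in lncRNA genes that overlap a protein-coding gene elsewhere along their length. No matching counts are given for the rest of the gaps. The 236 members occupied 223 gaps. In 160 cases, 67.8% (61.4 to 73.7), the gap held another LHY region, against 67.0% in the rest of the gaps, and in 58 of these the member was the strongest of the gap, while 76 members were the only region of theirs. Members alone in their gap had a median score of 10.8, and those with company 11.0. Another midpoint lay within 1000 bp of 100 members, 42.4% (36.0 to 49.0), against 46.8% in the rest of the gaps and 40.2% of all regions. With regions closer than 200 bp joined there were 215 inside lncRNA genes.

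Of the 244 lncRNA genes, 234 had 1 member, 9 had 2 and AT1G26208 had 3. This gene, 5514 bp long, runs across the coding gene SOFL1. Its regions of 47.6 and 6.58 lay on the side of AT1G26220, at 461 and 946 bp from SOFL1, and the region of 3.67 lay on the other side at 614 bp. In AT2G30362, between SIP4, a kinase gene of the CIPK family, and CHAL, a gene for a peptide of stomatal patterning, the scores were 35.6 and 3.67. AT3G03705, in the gap beside the branching regulator BRC1, had 24.7 and 8.07. AT3G01855, beside MYB108, had 8.94 and 7.70, and AT3G09365, between HAT3, a homeodomain-leucine zipper gene, and SHOT1, had 12.5 and 2.47. The genes with 2 members were picked for mention after their values were seen, with AT5G15845 described above. The closest pair of scores among these genes was that of AT3G01855.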

How the data were processed

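Regions and scores are the authors' deposited list of LHY regions, 1 list from 1 wild-type and 1 lhy-21 library. The submitters' processing notes name the aligner Bowtie, the TAIR9 build and the peak caller MACS2 (version 2.0.10.09132012). The unit of the deposited score, the caller's threshold and the reads per library are not given in the sources used here; depth is unknown. Genes came from a RefSeq table of assembly TAIR10.1, whose nuclear chromosome sequences are those of TAIR9. As a check, 34.8% of midpoints lay inside protein-coding genes, against 47.2% or more after shifts of 500 and 1000 bp to either side. The table has no strand, exons or sequence, so the planned search for sequence motifs was not run and no gene coordinates are given.

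Eligible sequence was lncRNA sequence outside protein-coding genes in gaps over 1000 bp. With 1 library per genotype no test was made. Shares have exact (Clopper-Pearson) 95% intervals, densities exact Poisson intervals, and ratios exact conditional intervals, computed with Python 3.11.15, pandas 2.3.3 and scipy 1.17.1. The sorting of midpoints into members and others, but not the intervals, was tested on simulated midpoints. Regions are not independent, so true uncertainty is wider. Named were the 25 strongest members, lncRNA genes with 3 or more members, listed flanking genes, the 2 regions on either side of the gap limit and the 3 weakest members. Members and lists were chosen with earlier results of these data known. The table held none of 18 lncRNA names searched for.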

Additional observations from a re-analysis of the deposited data

How the results depend on the processing

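Of 45 recomputed values, 31 stayed close to the reported one and 14 moved. Values with a counting interval were called close when inside it, and counts when within a set fold. These limits were loose. Counts of 187 regions in gaps over 2000 bp and 192 in lncRNA genes that overlap no protein-coding gene passed as close to 236. So did a median score of 13.9, at the edge of its interval of 9.68 to 13.9. Counting any overlap in place of the midpoint gave 427 regions in 438 lncRNA genes. Stricter score limits left fewer by construction: 127 regions in 138 genes above the median score, 25 in 28 among the strongest 10%, and 18 in 21 among the 1000 strongest. The fold over an even spread stayed between 2.28 and 2.65 over the alternatives that define it, and the median score between 11.0 and 13.9. Restricting to lncRNA genes that overlap no protein-coding gene raised the share of members near an lncRNA end to 93.2%. Listed neighbours numbered 4 when only the nearer gene counted and 3 within 1000 bp, against 8. The density ratio of 1.94 became 1.58 with distance weighting, 1.38 without gene-poor bins and 1.42 with both, alternatives chosen after seeing the data. The fold and the share near an end were not computed for any overlap, nor the median score under score limits. No paired analysis was possible because each genotype had 1 library, and for the same reason no replicate could be left out. Read depth is unknown, so a region absent from the list may lie below what these libraries could show.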

Other observations

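Counts for 5 gene families were taken by name after the values were seen, so they are descriptions and show no theme. Over all protein-coding genes 1.60% flanked a member, and 13.0% of those next to a gap with an lncRNA gene did. Of 25 Aux/IAA genes, which encode repressors of auxin response, 5 flanked a member and 12 stood next to such a gap. SHY2 and AXR3 shared a region of 5.89 in AT1G04253, 4955 bp from SHY2 and 1434 bp from AXR3. IAA2 and IAA7 shared a region of 2.46 in AT3G04375, and IAA9 had one of 5.66 in AT5G09415 at 6169 bp. Of 23 auxin response factor genes, 3 flanked a member and 8 stood next to such a gap, with ARF2 beside a region of 25.3 in AT5G09045 at 568 bp, ETT beside one of 20.5 in AT2G08645 at 7955 bp, and ARF19 beside one of 8.27 at 9878 bp. Of 13 auxin carrier genes, 6 stood next to such a gap and 3 flanked a member: LAX3 at 1724 bp with 14.6, PIN4 at 872 bp with 2.13 and LAX1 at 156 bp with 3.02. Apart from ARF2, PIN4 and LAX1, these genes were over 1000 bp from the region beside them.

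Among 96 MADS-box genes of the AGAMOUS-like group, 5 flanked a member, or 5.21%, and 14 stood next to such a gap. Beside FLC and AGL20 these were AGL18, a floral repressor, at 1099 bp from a region of 18.4 in AT3G08905, AGL101 at 4560 bp from one of 22.4 in AT5G04345, and AGL17 at 3247 bp from one of 4.79 in AT2G07840. Of 31 B-box genes, 4 flanked a member, or 12.9%, and 7 stood next to such a gap. CO and COL1 share their regions. Beside CO, COL1 and COL5 this was BBX9, 136 bp from a region of 2.63 in AT4G06300.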
